A study of Homo sapiens with 4 samples.

Results

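The genes described here encode 54 factors that carry out or control protein synthesis: initiation factors, the kinases and binding proteins that act on them, elongation factors and release factors. They were taken by symbol from a list of known factors; the rule uses no measured value, but the list was drawn up with earlier results of these data known. All 54 had exactly 1 row among the 57820 genes of the deposited table, all 54 are annotated as protein-coding, and all 54 passed the filter of a mean of at least 1 TPM (transcripts per 1000000) that left 12524 genes for testing. RNA came from an established human renal carcinoma cell line, starved of amino acids for 12 h in every library. The groups were 2 libraries carrying a non-targeting short hairpin RNA (shNT) and 2 carrying a GLUD1 hairpin (shGLUD1), GLUD1 being the gene for mitochondrial glutamate dehydrogenase. No fed cells were compared. Each group has 1 hairpin label, but no hairpin sequence is named, so whether its libraries share a hairpin is unknown. The labels also do not say whether the cells were clones or pools or whether replicates were separate cultures. The p-values therefore reflect no more than how far these libraries differ within a group, and that spread may be technical. In bulk RNA of this kind, a change in the number of cells of a type and a change in RNA per cell cannot be told apart.

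During initiation, eIF2 brings the initiator tRNA to the small ribosomal subunit, eIF3 holds that complex together, and the eIF4 proteins recruit the capped mRNA. Phosphorylation of the alpha subunit of eIF2 by any of its kinases turns eIF2 into an inhibitor of its exchange factor eIF2B, and the 4E-binding proteins block the cap-binding protein eIF4E when the kinase mTORC1 is inactive. Amino acid shortage is the classic trigger of both controls, through the kinase GCN2 and through loss of mTORC1 activity. Both act on proteins, which RNA sequencing does not measure. Many mRNAs of the translation apparatus also begin with a C followed by a run of pyrimidines, the terminal oligopyrimidine (TOP) motif, through which mTORC1 controls their translation.

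The start of the transcript was read from RefSeq windows on GRCh38.p14, which matched 43 of the 54 factors by symbol and gave 59 annotated starts. A start was counted as TOP-like when the first transcribed base was C and began a run of at least 5 bases that were all C or T, on the transcribed strand. Such a start was found for 11 factors, 1 each, which was 18.6% of their 59 starts, against 4.07% of all 35116 starts in the table. The windows of these 11 factors are shown because their members appear in several of the complexes below; each gives 15 bases before and 15 bases from the annotated start, with the run of C and T from the start in capitals.
EEF1A1 (chr6:73521018-73521047, minus strand): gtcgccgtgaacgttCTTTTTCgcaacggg
EEF1B2 (chr2:206159880-206159909, plus strand): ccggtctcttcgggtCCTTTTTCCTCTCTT
EEF2 (chr19:3985449-3985478, minus strand): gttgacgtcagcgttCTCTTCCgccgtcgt
EIF2A (chr3:150546772-150546801, plus strand): tcacccgagcggtttCTCTTTCCgggacaa
EIF2S3 (chrX:24054941-24054970, plus strand): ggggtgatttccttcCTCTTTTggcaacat
EIF3D (chr22:36529152-36529181, minus strand): gcgcgcgcatgtttcCTCTTTTCCTggttt
EIF3F (chr11:7987322-7987351, plus strand): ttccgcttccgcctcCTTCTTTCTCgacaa
EIF3K (chr19:38619173-38619202, plus strand): ttccgtttccaccacCTCTTCCTgttcccg
EIF3M (chr11:32583816-32583845, plus strand): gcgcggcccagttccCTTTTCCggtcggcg
EIF4A2 (chr3:186783562-186783591, plus strand): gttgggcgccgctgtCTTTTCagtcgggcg
EIF4B (chr12:53006441-53006470, plus strand): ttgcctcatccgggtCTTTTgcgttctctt

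The targeted gene was read first. GLUD1 stood at 18.1 and 17.4 TPM with shNT and 13.5 and 19.8 TPM with shGLUD1, so the second library labelled shGLUD1 was above both controls (log2 fold change -0.11, SE 0.19, limma adjusted p = 0.631; 0.15 without shGLUD1 replicate 1). Relative to the typical gene it was lower: GLUD1 stood at -0.83 (limma adjusted p = 0.00233) after the median-ratio rescaling described next, and at -1.03 (0.00196) with trends in transcript length and GC content removed. Such calls were common: 27.9% of all genes tested passed as lower after rescaling, and 2849 of 12258 genes with those trends removed. Below, shGLUD1 means the libraries labelled so, and every direction rests on that label. Sequencing depth is unknown, because TPM keep no read totals. TPM also divide every gene by the library's total, and the median of all genes tested was 0.63 log2 units higher in shGLUD1. Each change is therefore given on TPM and again after rescaling the libraries by median ratios, so that the typical gene stays level; this second number is called the rescaled value. Of the 6 renal carcinoma markers that passed the filter, VIM (931 and 891 TPM with shNT and 2902 and 3756 TPM with shGLUD1), CA9 and EPAS1 were higher on both scales (rescaled 1.09, 0.78 and 0.60), and KRT18 was lower on both (rescaled -1.03). KRT8 was higher on TPM alone, and PAX8, between 5.18 and 8.75 TPM, was lower after rescaling alone; PAX2 and CDH6 were at 0.12 TPM or less. Summed leukocyte markers lay between 0.14 and 1.36 TPM and summed endothelial markers between 0.11 and 0.41 TPM. Summed fibroblast-type markers were higher in shGLUD1 (22.9 and 19.1 TPM with shNT, 54.1 and 58.9 TPM with shGLUD1), mostly COL1A2, with COL3A1 at 0.03 TPM or less; the part of these markers in the results was not tested.

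On TPM, 41 of the 54 factors rose in shGLUD1, 3 fell and 10 did not pass the test (limma, Benjamini-Hochberg adjusted p under 0.05). Of all genes tested, 56.7% rose and 7.77% fell, against 75.9% and 5.56% of the factors. The median log2 fold change of the factors was 0.86, beside 0.63 for all genes. After rescaling, 17 factors were higher and 15 lower, 31.5% and 27.8%, against 23.2% and 27.9% of all genes, and their median was 0.11. After rescaling, the eIF4 and poly(A)-binding set had 6 higher and 0 lower and the elongation factors 0 higher and 5 lower, while eIF2, eIF2B, eIF3 and the 4E-binding proteins each held members of both kinds. The 3 that fell on both scales were EIF6, EIF3E and EEF1B2; EEF1B2 lost its TPM call when the test used no trend of variance with level (limma adjusted p = 0.0767). The 54 transcripts together made up 1.47% and 1.45% of all TPM in shNT and 1.76% and 1.97% in shGLUD1.

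**Figure D1:**
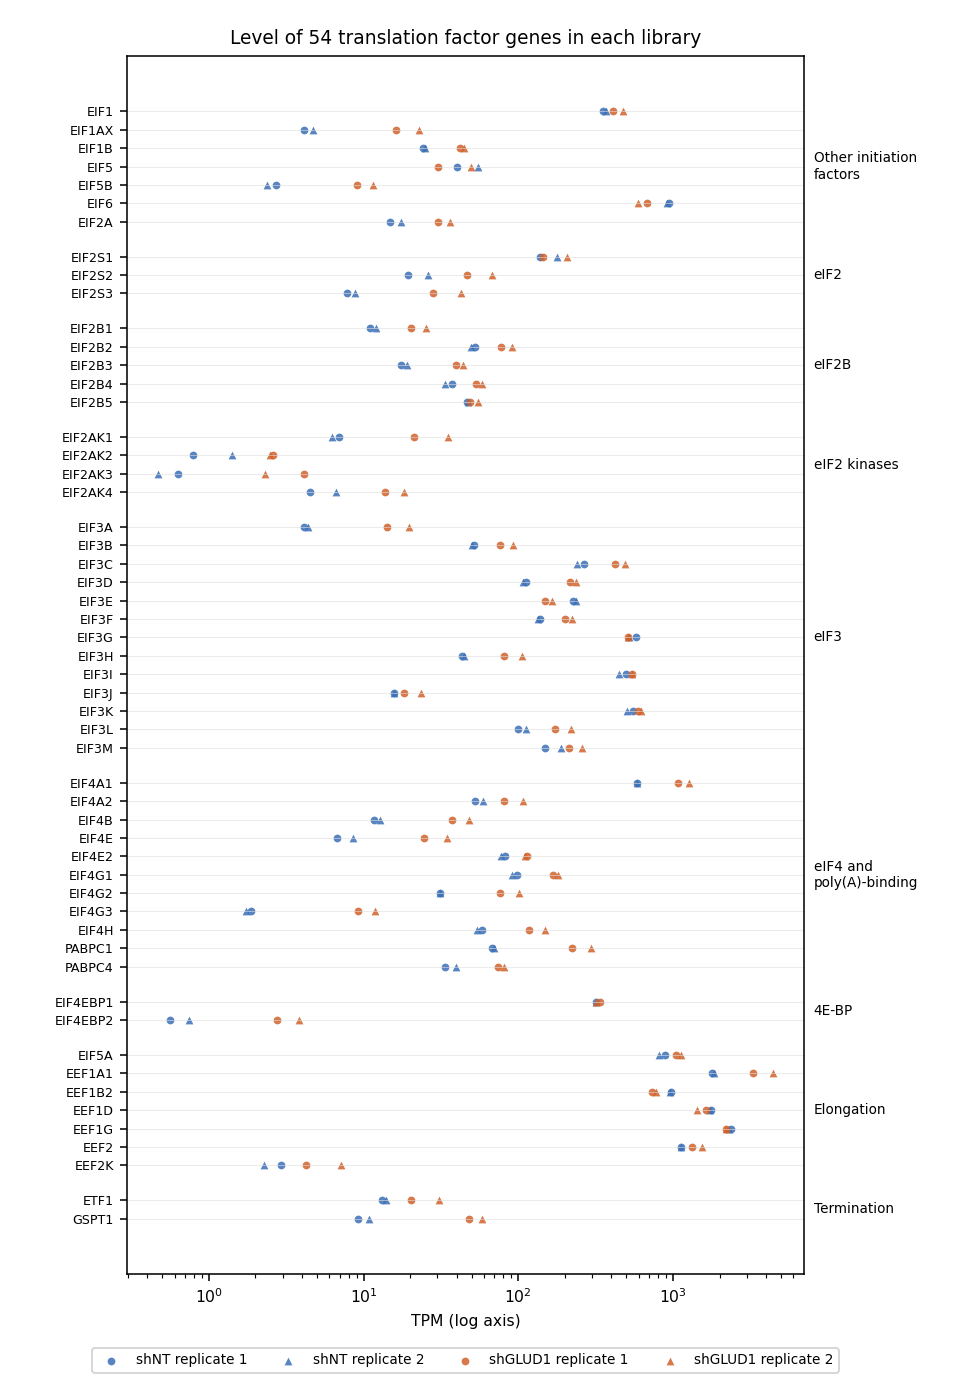
TPM of each of the 54 translation factor genes in each library on a log axis, grouped by complex (circles, replicate 1; triangles, replicate 2; blue, shNT; orange, shGLUD1). Levels ran from under 1 TPM (EIF4EBP2 and EIF2AK3 in both shNT libraries, EIF2AK2 in shNT replicate 1) to 4418 TPM (EEF1A1 in shGLUD1 replicate 2). The orange points lay to the right of the blue ones without overlap in 46 rows and to the left in 6 (EIF6, EIF3E, EIF3G, EEF1B2, EEF1D and EEF1G). This count was not made over all genes, whose median was 0.63 log2 units higher in shGLUD1, so it describes these rows only.

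Among the kinases that phosphorylate eIF2, all 4 rose on TPM, beside 56.7% of all genes tested. EIF2AK1, which encodes HRI, the kinase activated by heme shortage and mitochondrial stress, was at 6.97 and 6.21 TPM with shNT and 21.2 and 35.1 TPM with shGLUD1. This was a 4.27-fold higher mean TPM (log2 fold change of TPM + 1 of 1.90, SE 0.23, limma adjusted p = 5.84e-05; rescaled 1.20), and the groups did not overlap. Its exons share 532 bases with AIMP2 on the opposite strand (mean 37.1 TPM, beside 17.4 for EIF2AK1), and whether counting used strand is not given in the sources used here. EIF2AK4, which encodes GCN2, the kinase that senses uncharged tRNA, was at 4.50 and 6.66 TPM with shNT and 13.7 and 18.3 TPM with shGLUD1 (log2 fold change 1.38, rescaled 0.69, both past the threshold). EIF2AK3, which encodes PERK, the kinase of endoplasmic reticulum stress, was at 0.630 and 0.470 TPM with shNT and 4.10 and 2.30 TPM with shGLUD1. EIF2AK3 reached the filter's mean of 1 TPM only through shGLUD1, where it was higher, so being tested favoured a rise. EIF2AK2, which encodes PKR, the kinase activated by double-stranded RNA, was at 0.790 and 1.41 TPM with shNT and 2.60 and 2.48 TPM with shGLUD1. Its rise (0.77) lost its call without shNT replicate 1 (limma adjusted p = 0.252), without shGLUD1 replicate 1 (0.0616) or without shGLUD1 replicate 2 (0.0608), and its rescaled value of 0.30 did not pass. HRI was the most abundant of the 4 kinase transcripts in both shGLUD1 libraries, and PKR and PERK stayed below 5 TPM in every library. With length and GC trends removed, EIF2AK1 alone of the 4 passed (0.86, limma adjusted p = 0.00896); EIF2AK4 stood at 0.32 (0.208), EIF2AK3 at 0.36 (0.409) and EIF2AK2 at -0.10 (0.735).

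The 3 subunits of eIF2 itself changed by different amounts, and their levels lay closer together in shGLUD1. EIF2S1, the alpha subunit that the kinases phosphorylate, was at 137 and 177 TPM with shNT and 145 and 207 TPM with shGLUD1. These values overlapped between groups, and the difference did not pass on TPM (log2 fold change 0.15, SE 0.17, limma adjusted p = 0.434; rescaled -0.61, adjusted p = 0.0124). EIF2S3, the gamma subunit that binds GTP and the initiator tRNA, was at 7.87 and 8.80 TPM with shNT and 28.2 and 42.6 TPM with shGLUD1, 4.24-fold higher (1.94, SE 0.20, limma adjusted p = 2.77e-05; rescaled 1.22). EIF2S2, the beta subunit, lay between, at 19.2 and 26.1 TPM with shNT and 46.8 and 68.0 TPM with shGLUD1 (1.30, rescaled 0.56, both past the threshold; 0.45 with length and GC trends removed, limma adjusted p = 0.0595). The ratio of EIF2S1 to EIF2S3 TPM, which no scaling of a library can change, was 17.5 and 20.1 in shNT and 5.15 and 4.87 in shGLUD1. These subunits had the smallest and the largest change of the 3 on TPM, so the ratio restates that difference. The alpha transcript was the most abundant of the 3 and the gamma transcript the least abundant in all 4 libraries, but the gap was smaller in shGLUD1.

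Of the 5 subunits of eIF2B, the exchange factor that reloads eIF2 with GTP, 4 rose on TPM and EIF2B5 did not pass. The share of all genes tested that rose was 56.7%. EIF2B3, the gamma subunit, was at 17.4 and 19.0 TPM with shNT and 39.5 and 43.9 TPM with shGLUD1 (log2 fold change 1.15, SE 0.14, limma adjusted p = 7.08e-05; rescaled 0.42). EIF2B5, the catalytic epsilon subunit, was at 46.8 and 47.5 TPM with shNT and 48.6 and 54.9 TPM with shGLUD1 (0.13, rescaled -0.62, of which only the second passed). The alpha, beta and delta subunit genes EIF2B1, EIF2B2 and EIF2B4 rose by 0.92, 0.72 and 0.65 on TPM, and 0.20, -0.028 and -0.10 after rescaling, each short of the threshold. The highest and lowest eIF2B subunits differed 4.73-fold and 4.07-fold in the shNT libraries and 3.82-fold and 3.60-fold in the shGLUD1 libraries, a narrower spread in every library than in eIF2 or eIF3. Unlike EIF2S1 to EIF2S3, the ratio of EIF2S1 to EIF2B5, substrate alpha subunit to catalytic epsilon subunit, overlapped between groups, at 2.93 and 3.73 in shNT and 2.98 and 3.78 in shGLUD1.

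In the cap-binding module the transcript of the cap-binding protein rose on TPM and that of its main inhibitor did not pass. EIF4E, which binds the cap, was at 6.75 and 8.49 TPM with shNT and 24.5 and 34.4 TPM with shGLUD1, 3.87-fold higher (log2 fold change 1.81, SE 0.20, limma adjusted p = 3.87e-05; rescaled 1.10). EIF4EBP1, which encodes 4E-BP1, was at 319 and 319 TPM with shNT and 338 and 319.5 TPM with shGLUD1. All 4 values lay between 319 and 338 TPM, and the TPM difference did not pass (0.045, SE 0.090, limma adjusted p = 0.677), whereas the rescaled value was -0.72 (adjusted p = 0.00268). There were thus 47.3 and 37.5 EIF4EBP1 transcripts per EIF4E transcript in shNT and 13.8 and 9.29 in shGLUD1, a 3.72-fold lower ratio that no rescaling of a whole library changes. With length and GC trends removed, the ratio, on the TPM + 1 scale, was 1.80-fold lower. EIF4EBP2, the related inhibitor, was scarce at 0.560 and 0.740 TPM with shNT and 2.75 and 3.83 TPM with shGLUD1 (1.37, SE 0.26, limma adjusted p = 0.000936; rescaled 0.92; 0.31 with length and GC trends removed, limma adjusted p = 0.173). EIF4EBP2 reached the filter's mean of 1 TPM only through shGLUD1, so a rise was favoured by its being tested at all. EIF4E2, a cap-binding relative best known as a repressor, was at 82.4 and 77.0 TPM with shNT and 113 and 111 TPM with shGLUD1 (0.49, SE 0.11, limma adjusted p = 0.00229), but -0.27 after rescaling, short of the threshold. It outnumbered EIF4E 12.2-fold and 9.06-fold in shNT and 4.61-fold and 3.23-fold in shGLUD1.

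**Figure D2:**
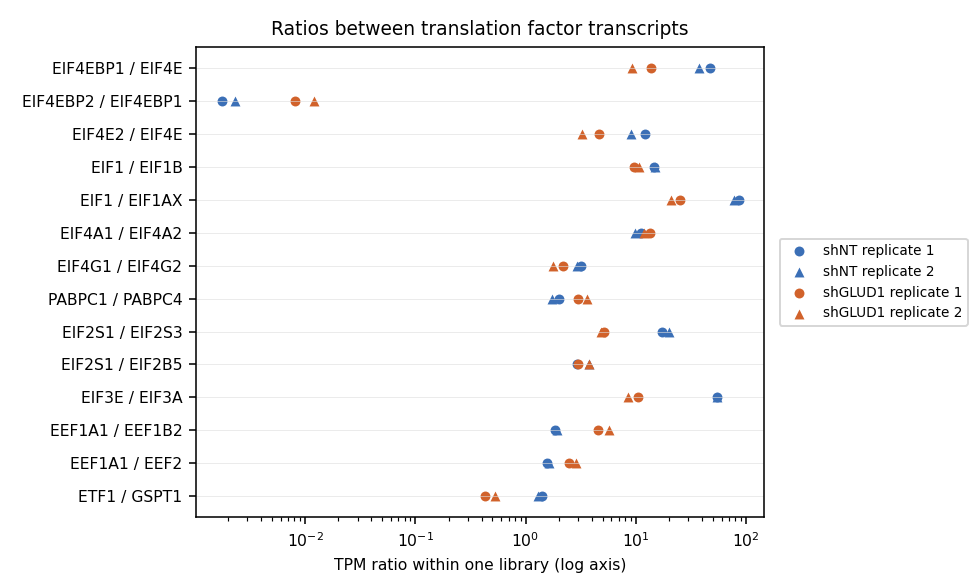
Ratio of the TPM of 2 factors within each library on a log axis, 1 row per pair (circles, replicate 1; triangles, replicate 2; blue, shNT; orange, shGLUD1). The EIF4EBP1 to EIF4E ratio was 47.3 and 37.5 in shNT and 13.8 and 9.29 in shGLUD1. Groups overlapped only for EIF2S1 to EIF2B5. The pairs EIF2S1 to EIF2S3, EIF3E to EIF3A and EEF1A1 to EEF1B2 set the extreme changes of a group of factors against each other.

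All 11 genes of the eIF4 and poly(A)-binding set rose on TPM, and 6 of them, EIF4B, EIF4E, EIF4G2, EIF4G3, EIF4H and PABPC1, were also higher after rescaling. Over all genes tested, 56.7% rose on TPM and 23.2% were higher after rescaling. EIF4G3, one of the scaffold proteins that join eIF4E to the ribosome, was at 1.86 and 1.73 TPM with shNT and 9.27 and 11.9 TPM with shGLUD1, with a 5.90-fold higher mean TPM (log2 fold change 2.04, SE 0.23, limma adjusted p = 4.37e-05; rescaled 1.44). EIF4G1, the main scaffold, was at 98.3 and 90.5 TPM with shNT and 167 and 180.5 TPM with shGLUD1 (0.87; rescaled 0.11, short of the threshold). EIF4G2, a scaffold that lacks the eIF4E-binding site, was at 31.0 and 31.0 TPM with shNT and 76.2 and 101 TPM with shGLUD1 (1.47, rescaled 0.72). EIF4G1 still led, but by 3.17-fold and 2.92-fold over EIF4G2 in shNT and by 2.19-fold and 1.79-fold in shGLUD1.

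The helicase genes and their cofactors rose on TPM. EIF4A1, the RNA helicase that unwinds the leader, was at 588 and 581 TPM with shNT and 1083 and 1269 TPM with shGLUD1 (log2 fold change 1.003, SE 0.096, limma adjusted p = 1.88e-05), but 0.24 after rescaling, short of the threshold. Its close relative EIF4A2 was at 52.8 and 59.2 TPM with shNT and 80.7 and 107 TPM with shGLUD1 (0.72, SE 0.14, limma adjusted p = 0.00135; rescaled -0.032, not past the threshold). The helicase cofactor EIF4B was at 11.6 and 12.8 TPM with shNT and 37.4 and 48.3 TPM with shGLUD1 (1.72, rescaled 0.99), and EIF4H, another cofactor, rose by 1.22 (rescaled 0.47). PABPC1, the main cytoplasmic poly(A)-binding protein, was at 67.2 and 69.5 TPM with shNT and 221 and 294 TPM with shGLUD1 (1.89, SE 0.13, limma adjusted p = 3.29e-06; rescaled 1.13). Its relative PABPC4 was at 33.4 and 39.6 TPM with shNT and 73.8 and 81.2 TPM with shGLUD1 (1.07, SE 0.13, limma adjusted p = 6.74e-05), and the rescaled value of 0.32 did not pass. The PABPC1 to PABPC4 ratio was 2.01 and 1.75 in shNT and 2.998 and 3.63 in shGLUD1.

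The 13 subunits of eIF3 spanned a wide range of levels. On TPM 8 rose, 1 fell and 4 did not pass, and after rescaling 1 was higher, 4 were lower and 8 did not pass. On TPM these were 61.5% and 7.69%, close to the 56.7% and 7.77% of all genes tested. The rescaled shares were 7.69% higher and 30.8% lower, beside 23.2% and 27.9% of all genes. EIF3A, the large scaffold subunit, was at 4.13 and 4.37 TPM with shNT and 14.2 and 19.6 TPM with shGLUD1, 3.97-fold higher (log2 fold change 1.75, SE 0.21, limma adjusted p = 6.37e-05; rescaled 1.08). EIF3E, which is part of the same core, fell: it was at 225 and 237 TPM with shNT and 149 and 165 TPM with shGLUD1, 68.1% of the control mean (-0.55, SE 0.10, limma adjusted p = 0.000785; rescaled -1.31). There were 54.4 and 54.1 EIF3E transcripts per EIF3A transcript in shNT and 10.5 and 8.44 in shGLUD1, a 5.77-fold lower ratio (3.10-fold with length and GC trends removed). These subunits had the largest fall and the largest rise in eIF3, so the ratio restates those changes and is no separate result. The most abundant subunit exceeded the least abundant, EIF3A, 140-fold and 118-fold in shNT and 42.1-fold and 31.9-fold in shGLUD1.

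The other eIF3 subunits either rose on TPM or did not pass. EIF3D, which can itself contact the cap of some mRNAs, was at 113 and 108 TPM with shNT and 215 and 234 TPM with shGLUD1 (log2 fold change 1.02, rescaled 0.26). EIF3H, EIF3L, EIF3B, EIF3F and EIF3M rose by 1.06, 0.87, 0.71, 0.62 and 0.49, and none of their rescaled values passed. EIF3M lost its TPM call without shNT replicate 1 (0.32, limma adjusted p = 0.0914) or shGLUD1 replicate 2 (0.34, 0.123). EIF3C rose by 0.86 (rescaled 0.095), but its near-identical copy EIF3CL was listed beside it at 63.8 and 50.3 TPM with shNT and 116 and 128 TPM with shGLUD1, so how reads were split between them is uncertain. The abundant subunits EIF3G, EIF3I and EIF3K stood between 446 and 623 TPM in every library, and none passed on TPM (-0.098, 0.21 and 0.22). Their rescaled values of -0.86, -0.55 and -0.55 all passed. EIF3J, a loosely bound subunit, did not pass on either scale (0.38, rescaled -0.34), and passed on TPM without shGLUD1 replicate 1 (0.56, limma adjusted p = 0.0182).

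**Figure D3:**
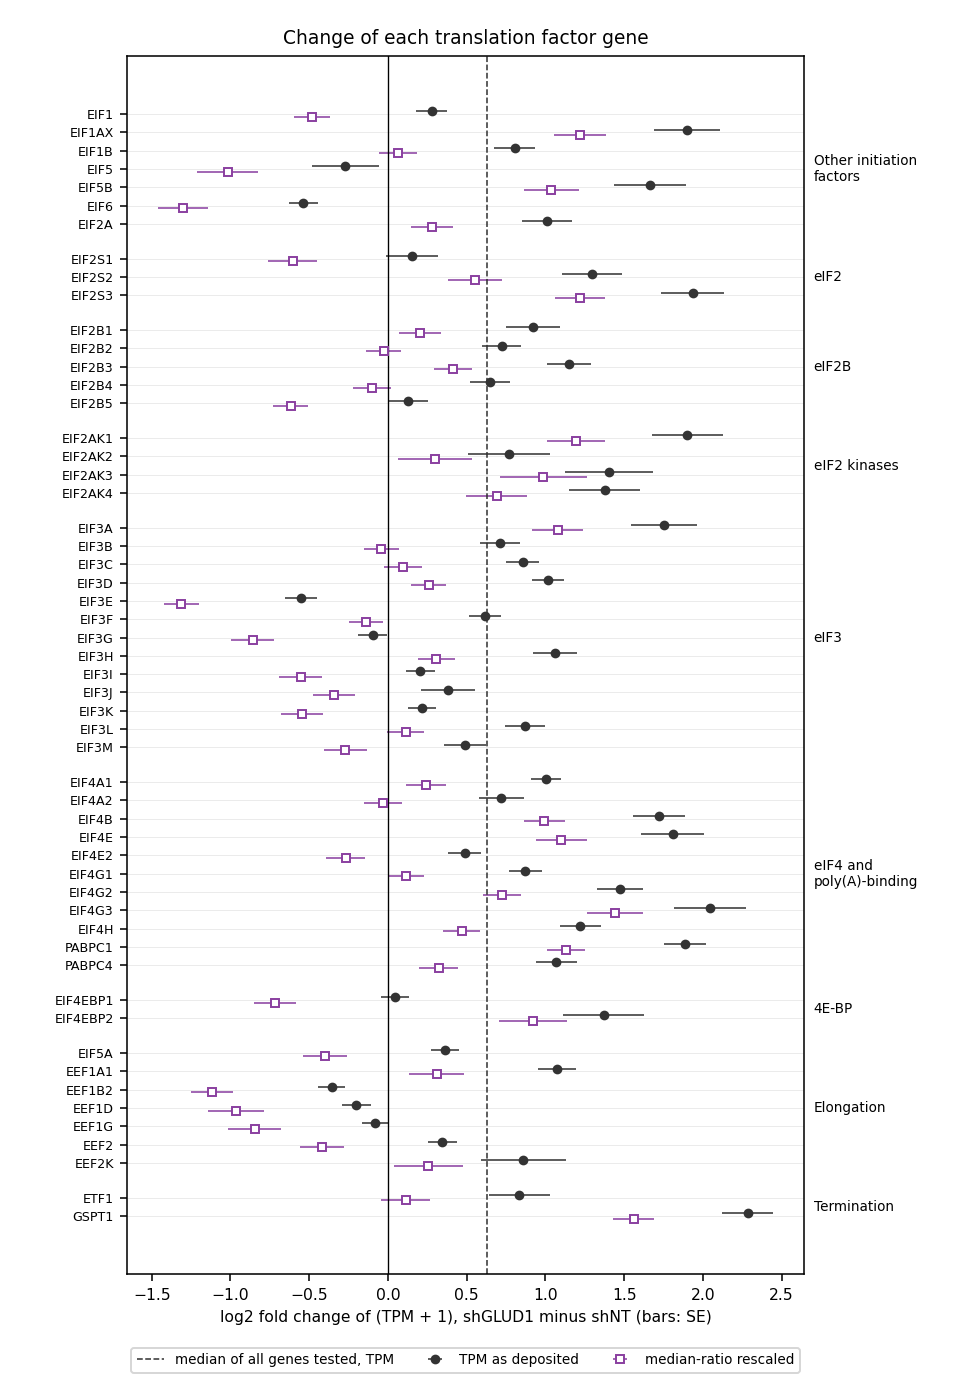
Log2 fold change of TPM + 1, shGLUD1 minus shNT, for each factor with its SE (black circles, TPM as deposited; purple squares, after median-ratio rescaling; dashed line, the median of all genes tested on TPM, 0.63). EIF6, EIF3E and EEF1B2 lay below 0 on both scales and past the threshold on both, while GSPT1, EIF4G3 and EIF2S3 lay furthest to the right on TPM.

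Among the initiation factors outside these complexes, 5 of 7 rose on TPM and 1 fell, beside 56.7% and 7.77% of all genes tested. EIF1AX, which encodes eIF1A, a scanning factor, was at 4.15 and 4.71 TPM with shNT and 16.2 and 22.7 TPM with shGLUD1, 4.40-fold higher (log2 fold change 1.90, SE 0.21, limma adjusted p = 4.13e-05; rescaled 1.22). Its partner in start-codon selection, EIF1, was at 355 and 367 TPM with shNT and 406 and 472 TPM with shGLUD1 (0.28, SE 0.099, limma adjusted p = 0.029). The call on EIF1 was lost without any 1 of shNT replicate 1 (0.25, limma adjusted p = 0.152), shNT replicate 2 (0.30, 0.0837) or shGLUD1 replicate 2 (0.17, 0.136), and its rescaled value was -0.48. EIF1B, a close relative of EIF1, was at 24.1 and 24.8 TPM with shNT and 42.3 and 44.5 TPM with shGLUD1 (0.80, SE 0.13, limma adjusted p = 0.000399), but 0.064 after rescaling, short of the threshold. EIF1 exceeded EIF1B 14.7-fold and 14.8-fold in shNT and 9.61-fold and 10.6-fold in shGLUD1.

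Of the factors that act when the ribosomal subunits meet, one rose and another fell. EIF5B, the GTPase of subunit joining, was at 2.72 and 2.36 TPM with shNT and 9.02 and 11.5 TPM with shGLUD1 (log2 fold change 1.66, rescaled 1.04, both past the threshold). Its exons share 852 bases with REV1 on the opposite strand (mean 3.09 TPM, beside 6.41 for EIF5B), and strand use in counting is not known. EIF6, which keeps the free large subunit from joining, was at 937 and 913 TPM with shNT and 679 and 598 TPM with shGLUD1, 69.0% of the control mean (-0.54, SE 0.092, limma adjusted p = 0.000551; rescaled -1.30), and every shGLUD1 value was below every shNT value. EIF5, which triggers GTP hydrolysis by eIF2, overlapped between groups at 40.4 and 54.9 TPM with shNT and 30.3 and 49.7 TPM with shGLUD1 (-0.27, limma adjusted p = 0.281; rescaled -1.02, adjusted p = 0.00295). Its TPM value passed without shNT replicate 1 (-0.49, limma adjusted p = 0.0488) and was 0.076 without shGLUD1 replicate 1. EIF2A, a single-chain protein distinct from the alpha subunit of eIF2, was at 14.7 and 17.3 TPM with shNT and 30.4 and 36.2 TPM with shGLUD1 (1.01), but 0.28 after rescaling, short of the threshold. EIF2A exons share 153 bases with SERP1 on the opposite strand (mean 218 TPM), and no source used here says that strand was used in counting.

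The elongation factors included the most abundant of the 54, and on TPM the tRNA carrier EEF1A1 rose while 1 of the 3 subunits of its exchange complex, EEF1B2, fell. EEF1A1, which delivers aminoacyl-tRNA to the ribosome, was at 1779 and 1853 TPM with shNT and 3300.4 and 4418 TPM with shGLUD1, 2.13-fold higher (log2 fold change 1.07, SE 0.12, limma adjusted p = 4.64e-05), but 0.31 after rescaling, short of the threshold. EEF1B2, a subunit of the complex that reloads EEF1A1 with GTP, was at 968 and 957 TPM with shNT and 731 and 772 TPM with shGLUD1, 78.1% of the control mean (-0.36, SE 0.085, limma adjusted p = 0.00372; rescaled -1.12). The other subunits of that complex, EEF1D at 1770.1 and 1734 TPM with shNT and 1634 and 1419 TPM with shGLUD1 and EEF1G at 2375 and 2294 TPM with shNT and 2206 and 2198 TPM with shGLUD1, did not pass on TPM (-0.20 and -0.084) and were lower after rescaling (-0.96 and -0.85). EEF1D passed on TPM without shGLUD1 replicate 1 (-0.30, limma adjusted p = 0.0189). For every EEF1B2 transcript there were 1.84 and 1.94 EEF1A1 transcripts in shNT and 4.52 and 5.73 in shGLUD1, a 2.70-fold higher ratio (1.65-fold with length and GC trends removed). This pair holds the only fall and the largest rise among the elongation factors on TPM, so the ratio restates those changes. EEF1A1 has many processed pseudogene copies, so the share of its reads that could be placed is uncertain.

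EEF2, the translocation factor, was at 1132 and 1125 TPM with shNT and 1335 and 1539 TPM with shGLUD1 (log2 fold change 0.34, limma adjusted p = 0.00757; rescaled -0.42, lower). EIF5A, which relieves stalled ribosomes and carries the hypusine modification, was at 884 and 812 TPM with shNT and 1048 and 1129 TPM with shGLUD1 (0.36, rescaled -0.40, lower), and its TPM call was lost without shNT replicate 2 (0.30, limma adjusted p = 0.0725). For both, the direction depends on the scale: higher in TPM, lower relative to the typical gene. EEF2K, the kinase that inhibits EEF2, was scarce at 2.93 and 2.27 TPM with shNT and 4.22 and 7.10 TPM with shGLUD1 (0.86); the call was lost without shNT replicate 2 (0.73, limma adjusted p = 0.112) or shGLUD1 replicate 2 (0.54, 0.102), and the rescaled value of 0.26 did not pass.

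The release factors included the largest log2 fold change of TPM + 1 among the 54. GSPT1, which encodes the GTPase eRF3a, was at 9.23 and 10.9 TPM with shNT and 47.9 and 58.1 TPM with shGLUD1, with a 5.26-fold higher mean TPM (log2 fold change 2.28, SE 0.16, limma adjusted p = 3.29e-06; rescaled 1.56). Its partner ETF1, which encodes eRF1 and reads the stop codon, was at 13.1 and 14.0 TPM with shNT and 20.4 and 30.5 TPM with shGLUD1 (0.84), but 0.11 after rescaling, short of the threshold. ETF1 exceeded GSPT1 in both shNT libraries (1.42-fold and 1.28-fold), and GSPT1 exceeded ETF1 in both shGLUD1 libraries, where the ratio of ETF1 to GSPT1 was 0.425 and 0.525. GSPT1 (ENSG00000103342) lies on chromosome 16 of GRCh38, 11868128 to 11916082, minus strand.

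Set against the start sequences shown above, the 11 factors with a TOP-like start mostly rose on TPM: 9 rose, 1 fell and 1 did not pass, beside 56.7% and 7.77% of all genes. After rescaling 2 were higher and 3 lower, beside 23.2% and 27.9% of all genes. Their log2 fold changes ran from -0.36 for EEF1B2, whose run was the longest at 16 bases, to 1.94 for EIF2S3, with a median of 0.72. The 32 factors with annotated starts that were not TOP-like had a median of 0.85 (25 rose and 1 fell on TPM; 11 higher and 8 lower rescaled). Of 10 factors known as TOP mRNAs from the literature, 6 rose and 2 fell on TPM (2 higher and 5 lower rescaled), and 5 of them, EEF1A1, EEF1B2, EEF2, EIF3F and EIF4B, had a TOP-like start here. EEF1G, also on that list, had a window without one. EEF1D, EIF3E, EIF3H and PABPC1 were not matched. An annotated start is 1 position per transcript model and need not be the start used in these cells.

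Level and length moved with the changes. Spearman's rho between the log2 fold change on TPM and the mean TPM over the 4 libraries was -0.62 across the 54 factors and -0.14 across all 12524 genes. Factors of 100 TPM or more had a median log2 fold change of 0.31 (22 factors), those from 10 to 100 TPM 1.06 (26) and those below 10 TPM 1.39 (6). Of the lowest bin, EIF2AK3 and EIF4EBP2 passed the filter only through shGLUD1, where they were higher. The same bins over all genes gave 0.076, 0.61 and 0.74. With transcript length, rho was 0.46 across the factors and 0.39 across 12258 genes with a length, and factors under 2000 bases had a median of 0.36 (17), against 1.37 for those of 4000 bases or more (19). These are descriptions across genes that share the same 4 libraries, and level and length also go together. With trends in length and GC content removed, 17 factors were higher and 13 lower, beside 2726 and 2849 of the 12258 genes with a length. Of the 17 that were higher on both TPM and the rescaled scale, 13 remained higher, among them GSPT1, EIF2S3, EIF1AX and EIF4E (1.65, 1.09, 1.23 and 0.94), and EIF2S2, EIF2AK3, EIF2AK4 and EIF4EBP2 did not pass. EIF1B, EIF2A, EIF3D and EIF4A1 passed as higher here but not after rescaling. EIF2B2, EIF3F and EIF3M, higher on TPM and short of the threshold after rescaling, passed as lower here (-0.32, -0.36 and -0.36). All 3 that fell on both scales remained lower, EIF6, EIF3E and EEF1B2 (-0.75, -0.93 and -0.70). EIF4EBP1, short and GC-rich, then stood at 0.09 (limma adjusted p = 0.325).

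**Figure D4:**
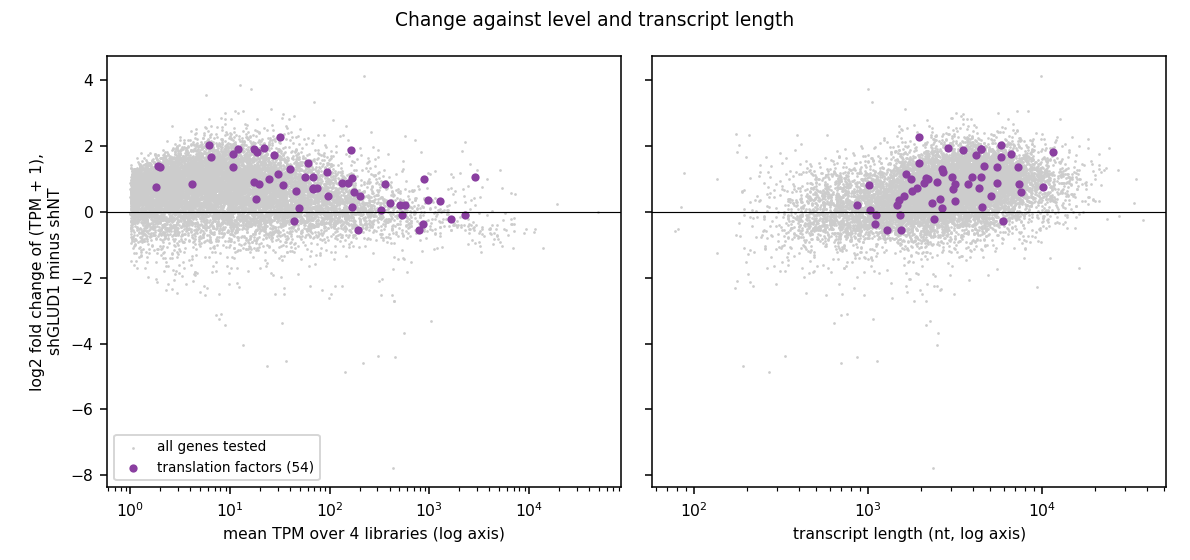
Log2 fold change of TPM + 1, shGLUD1 minus shNT, against mean TPM over the 4 libraries (left) and transcript length (right), both on log axes (grey, all genes tested; purple, the 54 translation factors). The purple points fall from a median of 1.39 below 10 TPM to 0.31 at 100 TPM or more, and rise from 0.36 under 2000 bases to 1.37 at 4000 bases or more.

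Other genes of the pathway, from lists chosen by function, were read in the same fit. Of 51 measured genes, 34 rose and 3 fell on TPM (66.7% and 5.88%, beside 56.7% and 7.77% of all genes). After rescaling 18 were higher and 16 lower (35.3% and 31.4%, beside 23.2% and 27.9% of all genes). Of 30 further translation factors, 18 (60%) rose and 0 fell on TPM in the limma test (0 lower at an unadjusted p under 0.05 as well). After rescaling 11 were higher and 11 lower (36.7% each). The largest increase was in HBS1L, a relative of GSPT1 that with PELO frees stalled ribosomes, at 6.26 and 6.36 TPM with shNT and 35.2 and 46.0 TPM with shGLUD1 (log2 fold change 2.50, rescaled 1.79). ABCE1, which splits ribosomes after termination, was at 2.89 and 3.65 TPM with shNT and 11.9 and 15.1 TPM with shGLUD1 (1.76, rescaled 1.11). Among 9 genes of eIF2 phosphorylation and its feedback, 7 rose and 2 fell on TPM (77.8% and 22.2%). After rescaling 4 were higher and 2 lower (44.4% and 22.2%). PPP1R15A, which directs a phosphatase to eIF2, fell and was at 202 and 176 TPM with shNT and 35.0 and 42.5 TPM with shGLUD1 (-2.26, rescaled -3.01), and ATF4, the factor translated when eIF2 is phosphorylated, was at 559 and 511 TPM with shNT and 263 and 296 TPM with shGLUD1 (-0.94, rescaled -1.70). PPP1CC, a catalytic subunit of that phosphatase, and GCN1L1, the activator of GCN2, rose (1.56 and 1.36). Of 12 genes of mTORC1 and the MNK kinases, 9 rose and 1 fell on TPM (75% and 8.33%). After rescaling 3 were higher and 3 lower (25% each, near the shares of all genes). MTOR and RPTOR, the kinase and its scaffold, rose (1.46 and 1.38). MLST8, a further subunit, fell and was at 57.1 and 57.2 TPM with shNT and 40.0 and 38.6 TPM with shGLUD1 (-0.53, rescaled -1.28).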

How the data were processed

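Per the labels' protocols, TruSeq V2 libraries were made from 1 ug of total RNA; the 4 libraries were grouped by title. The authors deposited TPM for 57820 genes, 1 column per library, matched to samples through their descriptions. Each column summed to 1000000, so values are scaled within libraries only and depth is unknown. Bowtie 0.12.2 and 2 builds, hg38 and mm8, appear in the submitters' processing notes with no role stated. Which quantifier and annotation were used is not given in the sources used here.

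Values were analysed as log2(TPM + 1), which understates changes of low genes, for the 12524 genes whose mean reached 1 TPM. The test was limma 3.58.1 (R 4.3.3; lmFit and trended eBayes on group alone), two-sided, with Benjamini-Hochberg adjustment over all genes tested and a threshold of 0.05. Fold without log2 is the ratio of mean TPM. An exact permutation test of 2 libraries against 2 cannot go below p = 0.333 and was not used. On simulated data for this comparison with 12524 genes, over 5 runs the fit recovered 483 of 500 genes with 2-fold changes and 499 of 500 with 4-fold changes, with 3 to 15 false calls per run; the simulation held no shift common to most genes. Positions, lengths, GC content and overlaps came from GENCODE release 29 (GRCh38), by gene identifier, with the principal coding transcript for length. Exons of 21 of the 54 factors overlap a gene of at least 1 TPM on the opposite strand. GCN1 is listed as GCN1L1, and PECAM1 was not matched. Full statistics are given for the passing member with the largest rise and fall in each complex and for related pairs; other members are named with fewer values, and for the other lists the 2 largest changes each way. The members and lists were chosen with earlier results of these data known. Alternatives were a pseudocount of 0.1 TPM, no filter, a minimum mean of 5 TPM, median-ratio rescaling, quantile normalization, no variance trend, a replicate block and leaving out each library; removal of length and GC trends (loess) was added after seeing the data. Tables were made in Python 3.11.15 (pandas 2.3.3, scipy 1.17.1) and figures with matplotlib 3.10.9.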

Additional observations from a re-analysis of the deposited data

How the results depend on the processing

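The count of factors higher (41) and lower (3) moved with scaling: 17 and 15 after median-ratio rescaling, 17 and 13 with length and GC trends removed, and 33 and 5 under quantile normalization. Over all genes (7105 higher and 973 lower) these were 2910 and 3491, 2726 and 2849, and 2938 and 2764, and 4676 were higher at a mean of at least 5 TPM, where fewer genes were tested. For other pathway genes (34 higher and 3 lower) they were 18 and 16, 18 and 12, and 18 and 11. Rescaling lowers nearly all changes alike, so such moves follow from its construction. With each library left out in turn, factors higher ranged from 37 to 41 and lower from 3 to 4.

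Directions that reversed after rescaling were EIF1 (-0.48), EIF2S1 (-0.61), EIF2B2 (-0.028), EIF2B4 (-0.10), EIF2B5 (-0.62), EIF3B (-0.041), EIF3F (-0.14), EIF3I (-0.55), EIF3J (-0.34), EIF3K (-0.55), EIF3M (-0.27), EIF4A2 (-0.032), EIF4E2 (-0.27), EIF4EBP1 (-0.72), EIF5A (-0.40) and EEF2 (-0.42). With length and GC trends removed they were EIF1 (-0.50), EIF2S1 (-0.74), EIF2B2 (-0.32), EIF2B5 (-0.57), EIF2AK2 (-0.10), EIF3F (-0.36), EIF3I (-0.22), EIF3J (-0.27), EIF3M (-0.36), EEF2 (-0.29), EEF2K (-0.13) and ETF1 (-0.14). Under quantile normalization they were EIF2S1 (-0.021), EIF2B5 (-0.33), EIF3J (-0.25), EIF4EBP1 (-0.054) and EEF1G (0.036). Leaving out 1 library gave ranges of -0.62 to 0.076 for EIF5, -0.10 to 0.41 for EIF2S1 and -0.37 to 0.15 for GLUD1, none of which had passed on TPM.

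A pseudocount of 0.1 TPM changed no factor's direction or call. With no variance trend, EEF1B2, EIF1, EIF3M, EIF5A and EEF2 lost their TPM calls (37 higher and 2 lower). Of the factors higher on both scales, EIF2AK3 lost its call under quantile normalization (0.80, limma adjusted p = 0.0578). The labels do not say what a replicate number shares, and the differences between replicates 1 and 2 correlated little between groups (Pearson r = 0.039 across genes). A replicate block changed no factor's call and gave 7395 higher and 1061 lower over all genes. Depth is unknown, so no detection limit can be given for scarce transcripts such as EIF4EBP2.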

Other observations

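The window from 250 bases before to 50 bases after each RefSeq start was also searched for the E-box CACGTG, the palindromic core site of MYC and related factors, which reads the same on both strands and overlaps no other motif searched. It was found in 10 of the 59 windows of the matched factors (16.9%), 1 each for EIF1B, EIF2B3, EIF2AK2, EIF3F, EIF3K, EIF4B, EIF4E, EIF4G1, EIF4H and EEF2K, against 7.26% of all 35116 windows. Of these 10 genes, 9 rose and 0 fell on TPM and EIF3K did not pass (all genes, 56.7% and 7.77%; all 54 factors, 75.9% and 5.56%), with log2 fold changes from 0.22 to 1.81 and a median of 0.87. The 33 matched factors without these letters had a median of 0.72, with 25 rising and 2 falling. After rescaling, 4 of the 10 were higher (EIF2B3, EIF4B, EIF4E and EIF4H), EIF3K was lower and 5 did not pass, with a median of 0.28, and of the other 33, 9 were higher and 10 lower, with a median of -0.028. Over all genes, 23.2% were higher and 27.9% lower after rescaling. A match describes these windows and is not evidence of binding.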
